A study of Mus musculus with 15 samples.

Results

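The BCL2 family decides whether a T cell survives or dies at its mitochondria, and 10 of its genes were followed here in CD4 T cells of the small intestine. They were the survival genes Bcl2, Bcl2l1 and Mcl1, the pore formers Bax and Bak1, and the death triggers Bid, Bad, Bcl2l11, Bbc3 and Pmaip1. They were chosen by gene name, and the arrays held 14 probes for them out of 55681 probes that were not controls. All 10 entered the tests, among 25997 genes tested of 34816 names on the array. Bcl2l1, Mcl1, Bad and Bcl2l11 had 2 probes each, and the other 6 genes had 1 probe each.

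CD4 T lymphocytes had been sorted by flow cytometry from the lamina propria, the tissue under the gut epithelium, of male mice. The 3 groups of 5 one-colour arrays were control (normal chow), day 10 of a high-fat diet (HFD) and day 30 of that diet. The design text gives changing the gut microbiota as the use of the diet, and prediabetes and diabetes are named in the title. RNA was amplified by a commercial method for small samples before labelling. Strain, age, diet composition and a day for the controls are not given in the labels used here, so time on the diet and age cannot be told apart. The labels do not state that each array stands for its own mouse, so the p-values cover only the array-to-array spread, part or all of which may be technical.

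Anti-apoptotic members such as BCL2, BCL-xL (from Bcl2l1) and MCL1 hold the effectors BAX and BAK in check on the outer mitochondrial membrane. BH3-only proteins, named for the single homology domain they share with the family, bind the survival proteins or the effectors, and once BAX or BAK forms pores, cytochrome c is released and caspases are activated. In T cells BIM, the product of Bcl2l11, is known for removing activated cells when a response ends, and MCL1 and BCL2 for keeping T cells alive under cytokines such as interleukin-7.

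Sequences of 3 probes are shown because Bcl2 had the widest difference from control among the brightest probes, and because the 2 probes of Bcl2l11 read different stretches of the gene and differed in detection. The capitals mark codons that a translation of the probe placed in a conserved core, the BH1 core in Bcl2 and the BH3 core, the death-triggering helix, in the brighter Bcl2l11 probe. The dimmer Bcl2l11 probe has no capitals. Positions are those of build mm9 in the array's annotation. They are chr1:108608970-108609029 on the minus strand for Bcl2, chr2:127972893-127983988 on the plus strand for the brighter Bcl2l11 probe and chr2:127954736-127955417 on the plus strand for the dimmer one. These Bcl2l11 spans of 11096 and 682 bp exceed the 60 bases of a probe, so each probe skips genomic sequence between its ends. No mm9 gene models were used here, so exons and introns are not named further.
Bcl2: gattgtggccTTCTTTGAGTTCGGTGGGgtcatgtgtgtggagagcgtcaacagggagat
Bcl2l11, brighter probe: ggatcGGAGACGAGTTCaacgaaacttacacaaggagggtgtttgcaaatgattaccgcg
Bcl2l11, dimmer probe: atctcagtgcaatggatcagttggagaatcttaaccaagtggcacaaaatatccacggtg

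These facts of the whole series bear on the values. The share of spots well above background, a flag the scanner software sets for each spot, was 63.8% ± 11.96 in control, 58.5% ± 2.91 at day 10 and 51.3% ± 5.48 at day 30 (SD, n = 5 each). Slide 1 held the controls and day 10 replicates 1 to 3, and slide 2 held day 10 replicates 4 and 5 and all day 30 arrays, so no slide held both control and day 30. All 7 CD4 T cell markers examined (Cd3d, Cd3e, Cd3g, Cd4, Cd5, Lat and Thy1) passed that flag on every one of the 15 arrays. Of 6 epithelial markers 2 (Krt18 and Pigr) were so too, of 6 B lineage markers 2 (Jchain and Pax5), of 6 macrophage and dendritic cell markers 2 (Csf1r and Apoe), of 6 CD8 T and NK cell markers 2 (Gzma and Gzmb) and of 5 stromal and endothelial markers 0. The B cell marker Ms4a1 and the endothelial marker Cdh5 were well above background on none. In bulk samples like these, fewer cells of a type and less RNA per cell cannot be told apart.

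Read by its brightest probe, no member of the family passed the test between any 2 groups. In a limma fit over all genes, 0 of 10 members passed an adjusted p of 0.05 at day 10 against control, at day 30 against control or at day 30 against day 10, where 0.0% of all genes did in each. At an unadjusted p under 0.05 the count was also 0 of 10 in each comparison, against 2.61%, 5.21% and 4.12% of all genes. The groups overlapped for all 10 in each comparison, while they did not overlap for 0.427%, 0.646% and 0.581% of all genes. At such shares among all genes, 0 of 10 is not a result about the family. The smallest adjusted p of any gene was 0.6855, 0.3874 and 0.4113 in the 3 comparisons.

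The direction of the members was mixed. At day 10 the mean was higher than control for 6 members and lower for 4, with a median log2 difference of 0.12, against -0.0070 for all genes, of which 49.5% were higher. With slide as a block, and within slide 1, that split turned to 2 higher and 8 lower. At day 30 it was higher than control for 3 and lower for 7, with a median of -0.15, against -0.0053 for all genes, of which 49.8% were higher, and with slide as a block for 2 and 8. Between day 30 and day 10 the split was 5 higher and 5 lower, with a median of -0.16, against 0.051 for all genes, of which 52.8% were higher. Within slide 2, and with slide as a block, it was 3 and 7. For the 11601 genes well above background on all 15 arrays, as 9 of the 10 members were, the medians were higher than for all genes. They were 0.048 at day 10 against control, 0.20 at day 30 against control and 0.18 at day 30 against day 10. With slide as a block, the medians of all 25997 genes were 0.036, 0.18 and 0.14 in these comparisons, in that order. Day 10 had the highest mean for 5 members (Bax, Bak1, Bcl2l11, Bbc3 and Pmaip1), control for 3 (Bcl2, Bcl2l1 and Bad) and day 30 for 2 (Mcl1 and Bid). Of those 5, Bax, Bak1, Bbc3 and Pmaip1 had a day 10 mean below control with slide as a block, by log2 differences of -0.15, -0.29, -0.31 and -0.39. No neighbours in these orders differed beyond their spread.

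What the arrays could have shown is set by the intervals. The number of arrays limits the precision, and standard errors of the log2 differences ran from 0.48 for Mcl1 to 1.79 for Bid. None of the 10 members had a 95% interval inside a log2 difference of 1 (2-fold) in either direction in any comparison. The interval lay inside 2 (4-fold) for 4 members at day 10 against control (Mcl1, Bax, Bad and Pmaip1) and for these and Bcl2l11 at day 30 against control. Differences of less than 2-fold were thus not resolved for any member.

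**Figure D1:**
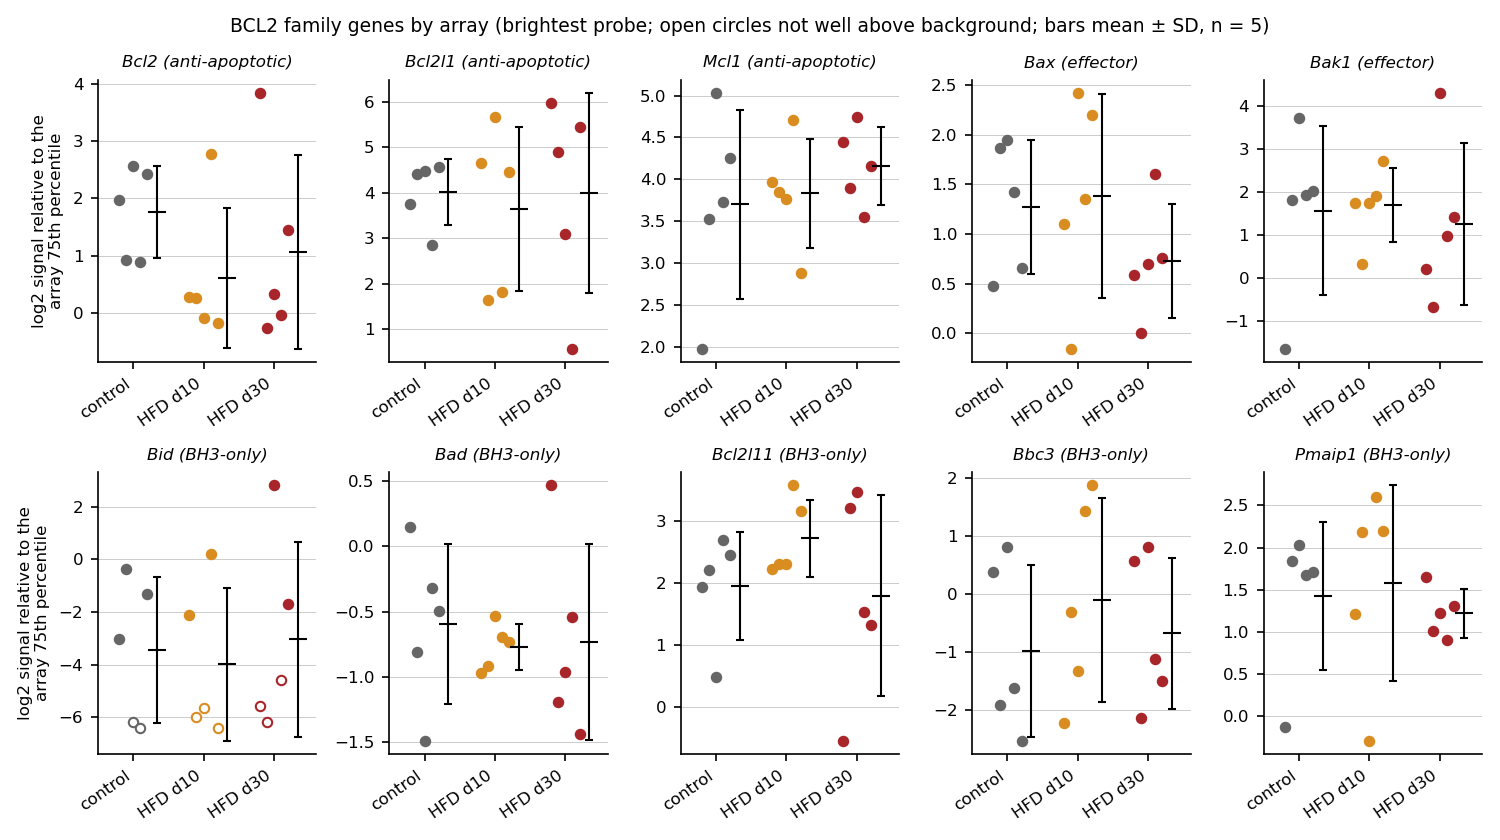
Log2 signal relative to the array's 75th percentile for the brightest probe of each of the 10 genes, with 1 point per array in control, HFD day 10 and HFD day 30. Bars give the mean ± SD of 5 arrays, open circles are spots not well above background, and the groups overlap in every panel.

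Bcl2, the founding survival gene of the family, had the lowest difference from control of the 10 at both time points. All values from here on are log2 signal of 1 probe relative to the 75th percentile of its array, and differences are between group means on that scale. Bcl2 gave 1.97, 0.93, 2.57, 0.89 and 2.43 on the control arrays. It gave 0.28, 0.26, -0.089, 2.77 and -0.17 at day 10 of the diet. By day 30 the readings were 3.84, -0.26, 0.33, -0.043 and 1.44. Of the 5 day 10 arrays, 4 lay below every control array, and replicate 4 lay above all of them. At day 30 replicates 2, 3 and 4 lay below every control and replicate 1 above every other array. The means were 1.76 ± 0.81 in control, 0.61 ± 1.22 at day 10 and 1.06 ± 1.69 at day 30 (SD, n = 5 each). The difference from control was -1.15 (95% interval -2.78 to 0.48) at day 10, with a limma adjusted p of 0.9999. It was -0.70 (95% interval -2.33 to 0.94) at day 30, with a limma adjusted p of 0.9694. Without day 10 replicate 4 the day 10 difference was -1.69, and within slide 1 it was -1.61. Both differences were below 0 under every alternative processing tried, from -1.69 to -0.94 at day 10 and from -1.85 to -0.37 at day 30.

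Bcl2l1 encodes BCL-xL, a survival protein that activated T cells induce. Control replicates 1 to 5 had its brighter probe at 3.75, 4.42, 4.47, 2.85 and 4.56. Day 10 replicates 1 to 5 had it at 4.65, 1.65, 5.66, 1.82 and 4.46. Day 30 replicates 1 to 5 had it at 5.98, 4.90, 3.09, 0.56 and 5.45. On this probe the controls lay closer together than either diet group. Day 10 replicates 2 and 4 and day 30 replicate 4 lay below every control. Mean levels were 4.01 ± 0.72 in control, 3.65 ± 1.81 at day 10 and 4.00 ± 2.21 at day 30 (SD, n = 5 each). The differences from control were -0.36 (95% interval -2.38 to 1.66) at day 10 and -0.016 (95% interval -2.04 to 2.00) at day 30. On the 5 control arrays the other Bcl2l1 probe read 0.084, 0.62, -1.71, 1.85 and 1.00. The day 10 arrays read -1.34, -0.20, 0.63, 0.54 and -1.13. At day 30 the values were -0.24, 2.16, 1.87, -0.35 and 2.00. Day 30 replicates 2, 3 and 5 were above all control arrays on this probe, and the groups overlapped. The SD on this probe was 1.33 in control, 0.91 at day 10 and 1.27 at day 30, so here the controls were not the closest together. Its differences from control were -0.67 (95% interval -2.23 to 0.90) at day 10 and 0.72 (95% interval -0.84 to 2.29) at day 30. Day 30 against day 10 gave 1.39 (95% interval -0.18 to 2.95) on it, with a limma adjusted p of 0.9989. The 2 probes did not order the arrays alike, since day 10 replicate 3 was the highest day 10 array on both but day 30 replicate 1 was the highest of all on the first and among the lowest day 30 arrays on the other.

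Mcl1 encodes a short-lived survival protein on which T cells depend. The brighter Mcl1 probe gave 1.98, 3.52, 5.03, 3.73 and 4.26 on the control arrays. It gave 3.96, 3.85, 3.76, 4.71 and 2.88 at day 10 of the diet. By day 30 the readings were 4.45, 3.90, 4.74, 3.55 and 4.16. Control replicate 1 was the lowest array of all, and the day 30 arrays lay within the range of the controls. The means were 3.70 ± 1.13 in control, 3.83 ± 0.65 at day 10 and 4.16 ± 0.46 at day 30 (SD, n = 5 each). Set against control, the differences were 0.13 (95% interval -0.89 to 1.16) at day 10 and 0.46 (95% interval -0.57 to 1.48) at day 30. The day 30 difference was 0.025 without control replicate 1, -0.68 with the detection share in the model and -0.25 in the authors' log2 values, so its direction depended on the processing.

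The other Mcl1 probe lies further along the same strand, at chr3:95466855-95466914 against chr3:95465543-95465602 for the brighter one (mm9, plus strand). Control replicates 1 to 5 had it at 1.47, 2.93, 4.31, 3.35 and 3.35. Day 10 replicates 1 to 5 had it at 3.33, 3.31, 3.02, 3.23 and 2.81. Day 30 replicates 1 to 5 had it at 1.21, -0.83, 5.00, -1.06 and 4.07. Day 30 replicates 2 and 4 were far below all control and day 10 arrays there, replicate 1 was below all of these too, and replicate 5 was inside the control range with replicate 3 above it. Against the controls the mean differed by 0.062 (95% interval -1.99 to 2.11) at day 10 and -1.40 (95% interval -3.45 to 0.65) at day 30, with limma adjusted p-values of 0.9999 and 0.9517. Over the single arrays left out the day 30 difference ranged from -2.23 (without day 30 replicate 3) to -0.72 (without day 30 replicate 4), and it was -3.09 with the detection share in the model, with a limma adjusted p of 0.566. Without day 30 replicate 2 it was -0.78. Within an array, this probe minus the brighter one was -0.62 ± 0.21 in control, -0.69 ± 0.51 at day 10 and -2.48 ± 2.42 at day 30 (SD, n = 5 each). On day 30 replicates 1, 2 and 4 the gap was -3.24, -4.73 and -4.61, while replicates 3 and 5 had 0.26 and -0.090. The gap at day 30 against control differed by -1.86, with an exact two-sided permutation p of 0.167 and 0.375 after Benjamini-Hochberg adjustment over the 9 such comparisons of Bcl2l1, Mcl1 and Bcl2l11. With 5 against 5 arrays the smallest possible p is 0.00794, and 1 such value among 9 tests adjusts to 0.0714, above the threshold. The smallest p of the 9 belonged to Bcl2l11 at day 10 against control and is given with that gene.

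**Figure D2:**
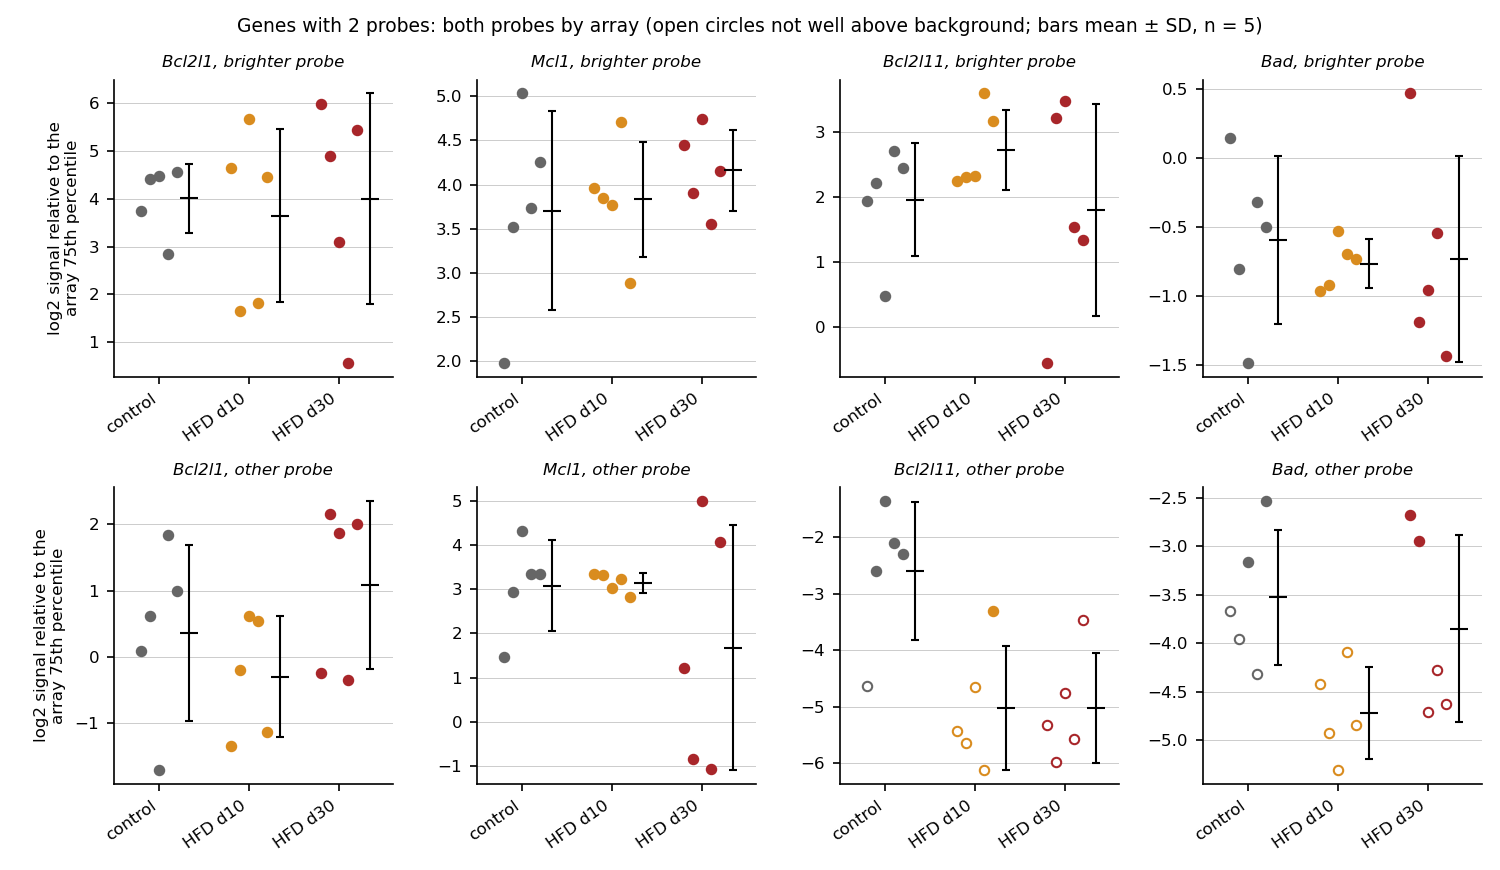
Both probes of Bcl2l1, Mcl1, Bcl2l11 and Bad, with 1 point per array in control, HFD day 10 and HFD day 30, as log2 signal relative to the array's 75th percentile (bars, mean ± SD of 5 arrays). Open circles are spots not well above background, and the dimmer Bcl2l11 probe is filled on 4 control, 1 day 10 and 0 day 30 arrays.

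Bax and Bak1 encode the effectors that form the pore. On the 5 control arrays Bax read 0.48, 1.87, 1.95, 1.42 and 0.66. The day 10 arrays read 1.10, -0.16, 2.42, 1.35 and 2.20. At day 30 the values were 0.58, 0.0031, 0.70, 1.60 and 0.75. Day 10 replicates 3 and 5 lay above every control array and replicate 2 below, and 4 of the 5 day 30 arrays lay below the control mean. The means were 1.27 ± 0.68 in control, 1.39 ± 1.03 at day 10 and 0.73 ± 0.57 at day 30 (SD, n = 5 each). The differences from control were 0.11 (95% interval -1.01 to 1.23) at day 10 and -0.55 (95% interval -1.67 to 0.57) at day 30, and day 30 against day 10 gave -0.66 (95% interval -1.78 to 0.46). The 2 differences that involve day 30 stayed below 0 under every alternative, with limma adjusted p-values of 0.9612 against control and 0.9995 against day 10.

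Bak1 gave -1.64, 1.81, 3.73, 1.93 and 2.03 on the control arrays. It gave 1.76, 0.33, 1.75, 1.91 and 2.72 at day 10 of the diet. By day 30 the readings were 0.22, -0.66, 4.31, 0.98 and 1.43. The highest array was day 30 replicate 3 and the lowest control replicate 1, and the groups overlapped. Mean Bak1 was 1.57 ± 1.96 in control, 1.69 ± 0.86 at day 10 and 1.26 ± 1.88 at day 30 (SD, n = 5 each). Set against control, the differences were 0.12 (95% interval -1.89 to 2.13) at day 10 and -0.31 (95% interval -2.32 to 1.69) at day 30. These 2 arrays were also the ends of the detection share, 45.2% on day 30 replicate 3 and 82.0% on control replicate 1. Without control replicate 1 the day 10 difference was -0.68 and the day 30 difference -1.12. With the detection share in the model they were -0.72 and -2.28, the day 30 value with a limma adjusted p of 0.586. The mean detection share itself fell from control to day 30, so this model cannot separate it from the diet. Its part in the Bak1 values was not tested.

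**Figure D3:**
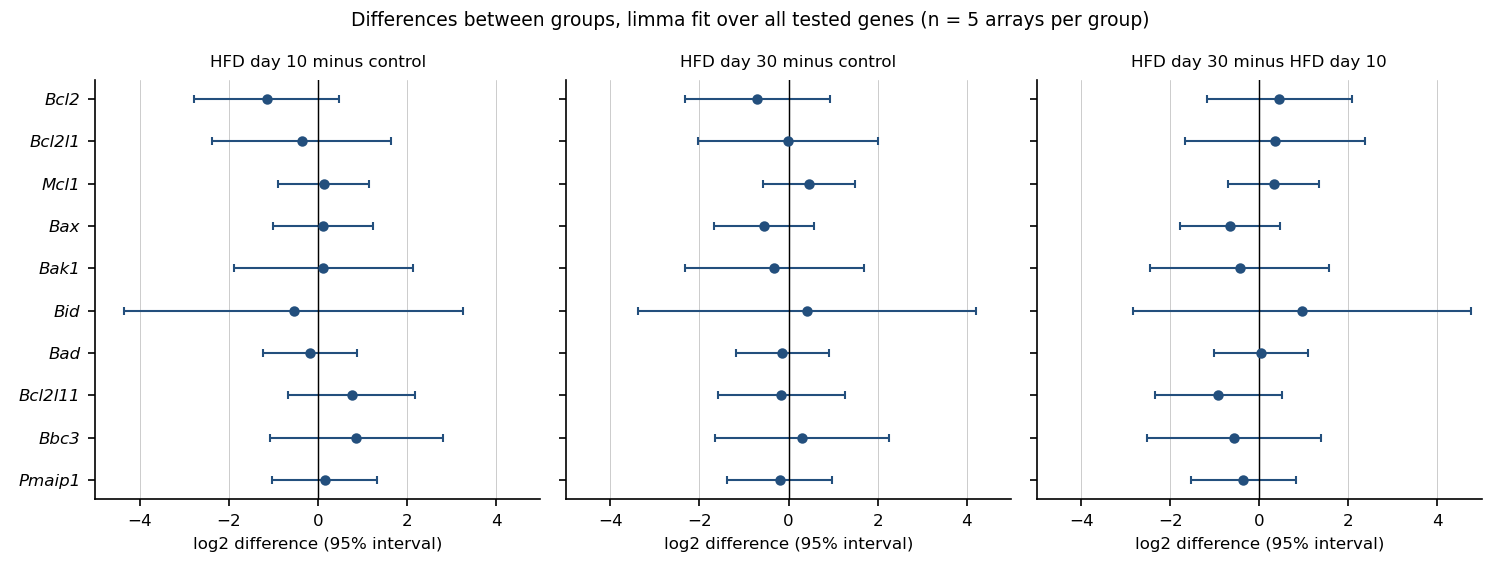
Log2 differences between group means for the 10 genes (brightest probe) with 95% intervals from the limma fit, for HFD day 10 minus control, HFD day 30 minus control and HFD day 30 minus HFD day 10. Every interval includes 0, and the Bid intervals are the widest.

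Bcl2l11 encodes BIM, the BH3-only protein that can engage all survival members. Control replicates 1 to 5 had its brighter probe, which covers the BH3 codons, at 1.93, 2.22, 0.48, 2.70 and 2.45. Day 10 replicates 1 to 5 had it at 2.23, 2.30, 2.31, 3.59 and 3.17. Day 30 replicates 1 to 5 had it at -0.56, 3.21, 3.48, 1.53 and 1.33. All 5 day 10 arrays lay above the control mean, and replicates 4 and 5 above every control. Day 30 spread from replicate 1, the lowest array of all, to replicates 2 and 3, above every control. The means were 1.96 ± 0.87 in control, 2.72 ± 0.62 at day 10 and 1.80 ± 1.63 at day 30 (SD, n = 5 each). The difference from control was 0.77 (95% interval -0.66 to 2.19) at day 10, with a limma adjusted p of 0.9999, and 0.33 within slide 1. It was -0.16 (95% interval -1.58 to 1.27) at day 30, with a limma adjusted p of 0.9947. Day 30 against day 10 gave -0.92 (95% interval -2.35 to 0.50), which stayed below 0 under every alternative. It was -1.58 within slide 2, which held only 2 day 10 arrays, replicates 4 and 5.

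The dimmer Bcl2l11 probe, which the array annotates to a transcript of the gene and whose sequence is the last of those above, was detected mainly on control arrays. On the 5 control arrays it read -4.64, -2.60, -1.35, -2.09 and -2.31. The day 10 arrays read -5.43, -5.65, -4.65, -6.12 and -3.31. At day 30 the values were -5.33, -5.98, -4.77, -5.58 and -3.47. Control replicates 2 to 5 lay above every day 10 and day 30 array, and control replicate 1 lay among them. The flag for a signal well above background was set on 4 control, 1 day 10 and 0 day 30 arrays, and on 5, 3 and 1 by the scanner software's less strict flag of a positive and significant signal. Mean levels were -2.60 ± 1.23 in control, -5.03 ± 1.10 at day 10 and -5.02 ± 0.97 at day 30 (SD, n = 5 each). Neither diet group passed the test against control over all 38437 probes, with limma adjusted p-values of 0.9999 at day 10 and 0.9403 at day 30 for unadjusted values of 0.00799 and 0.008136. The probe entered that test through 4 control arrays and 1 day 10 array, the arrays where it read high, so these p-values are no support for a difference. Of the 3 second probes tested, 1, 1 and 0 were under an unadjusted 0.05 in the 3 comparisons, where 2.77%, 5.09% and 4.3% of all probes were.

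Since the probe was not well above background on any day 30 array and on only 1 day 10 array, its level there is uncertain. With day 30 values raised to each array's lowest signal well above background, their mean was 1.89-fold lower than the measured control mean. This floor is no strict limit, since day 30 replicate 5 read -3.47, above its floor of -3.68, without the flag. With dim values of all groups raised to that floor the differences from control were -1.42 at day 10 and -1.02 at day 30. The measured means gave -2.43 at both times, from values that mostly were not well above background. Over the alternatives the difference ranged from -2.94 to -0.59 at day 10 and from -3.53 to -0.43 at day 30. The smallest size at both times came under normexp background correction, whose day 30 value is a smaller difference than 1.89-fold. With the detection share in the model it was -2.91 and -3.53, and within slide 1 it was -2.64 at day 10. The gap of this probe minus the brighter one differed from control by -3.20 at day 10 (exact permutation p 0.0159, adjusted 0.143). With dim values raised to the floor that was -2.18 (exact permutation p 0.00794, adjusted 0.0714). At day 30 the gap differed by -2.27 and by -0.87 with dim values raised. These p-values too are no support for a difference, since the dimmer probe was well above background mainly on control arrays. Detection of other dim genes moved too. Among stromal markers Col1a1, Col1a2 and Dcn passed the flag on 2, 3 and 1 control arrays, on 1, 0 and 1 at day 10 and on none at day 30. The epithelial markers Epcam and Krt19 passed it on 5 and 3 control arrays, on 3 and 3 at day 10 and on 3 and 1 at day 30. Cd8a and Klrb1c, of the CD8 T and NK list, passed it on 5 and 4, 4 and 4, and 3 and 1. Other markers did not fall this way. In control, at day 10 and at day 30, Ncr1 of the same list passed it on 2, 5 and 3 arrays. In that order Cd79a passed it on 2, 2 and 4, Adgre1 on 3, 4 and 4, and Lyz2 on 3, 0 and 3. Summed linear signal of the 6 B lineage markers ranged from 1.26 to 5.51 times the array's 75th percentile in control, from 1.70 to 17.2 at day 10 and from 3.68 to 27.0 at day 30. The 6 epithelial markers summed to 225 to 328 in control, 219 to 348 at day 10 and 240 to 552 at day 30. In that order the 7 CD4 T cell markers gave 37.7 to 167, 74.6 to 133 and 85.7 to 215.5. The CD8 T and NK list gave 38.6 to 194, 75.6 to 140 and 60.0 to 112. The macrophage and dendritic cell list gave 5.81 to 18.5, 7.63 to 14.2 and 7.28 to 18.3. The summed signal of the 5 stromal and endothelial markers ranged from 3.77 to 13.7 times that percentile in control, from 0.257 to 7.02 at day 10 and from 0.195 to 15 at day 30, and the part of these markers in the result was not tested.

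Bbc3 encodes PUMA, which p53 and FOXO factors induce. Bbc3 gave 0.38, -1.91, 0.81, -1.63 and -2.53 on the control arrays. It gave -2.23, -0.30, -1.33, 1.43 and 1.88 at day 10 of the diet. By day 30 the readings were 0.57, -2.14, 0.81, -1.12 and -1.49. Day 10 replicates 4 and 5 were the highest arrays, and both were on slide 2. The means were -0.98 ± 1.48 in control, -0.11 ± 1.76 at day 10 and -0.67 ± 1.30 at day 30 (SD, n = 5 each). The difference from control was 0.87 (95% interval -1.08 to 2.81) at day 10 and 0.30 (95% interval -1.64 to 2.25) at day 30, with limma adjusted p-values of 0.9999 and 0.9932. Within slide 1 the day 10 difference was -0.31, the opposite sign, and within slide 2 day 30 against day 10 gave -2.33, against -0.56 over both slides. Slide 2 held only 2 day 10 arrays, these 2 highest ones, and slide 1 held 3. With slide as a block the day 30 difference from control was -2.64. No slide held both control and day 30, so that value joins the 2 within-slide differences through day 10.

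Pmaip1 encodes NOXA, the BH3-only protein that binds mainly MCL1. Control replicates 1 to 5 had Pmaip1 at -0.13, 1.84, 2.03, 1.67 and 1.71. Day 10 replicates 1 to 5 had it at 1.21, 2.18, -0.29, 2.60 and 2.19. Day 30 replicates 1 to 5 had it at 1.65, 1.01, 1.23, 0.91 and 1.31. Control replicate 1 and day 10 replicate 3 stood far below the rest of their groups, and the day 30 arrays lay close together below the other 4 controls. The means were 1.42 ± 0.88 in control, 1.58 ± 1.16 at day 10 and 1.22 ± 0.29 at day 30 (SD, n = 5 each). Against the controls the mean differed by 0.16 (95% interval -1.02 to 1.34) at day 10 and -0.20 (95% interval -1.38 to 0.98) at day 30. Leaving out control replicate 1 moved them to -0.23 and -0.59, with a limma adjusted p of 0.9956 at day 30.

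Bid links death receptors to mitochondria once caspase-8 cleaves its product. On the 5 control arrays Bid read -3.01, -0.35, -6.18, -6.40 and -1.31. The day 10 arrays read -2.12, -5.99, -5.64, 0.22 and -6.41. At day 30 the values were -5.55, -6.16, 2.82, -4.58 and -1.70. The flag was set for it on 3 control, 2 day 10 and 2 day 30 arrays, and each group held arrays near the floor beside arrays far above it. The means were -3.45 ± 2.76 in control, -3.99 ± 2.91 at day 10 and -3.04 ± 3.70 at day 30 (SD, n = 5 each). The differences from control were -0.54 (95% interval -4.34 to 3.26) at day 10 and 0.41 (95% interval -3.39 to 4.21) at day 30. With its dim values set to each array's detection floor, they were -0.018 and 0.73. Its pooled SD within groups, 3.15 log2 units, which rests in part on values not well above background, exceeded that of 98.6% of the genes tested, whose median was 1.38.

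Bad, whose product is held inactive by phosphorylation under growth factor signals, was the steadiest member. Its brighter probe gave 0.15, -0.81, -1.49, -0.32 and -0.50 on the control arrays. It gave -0.97, -0.92, -0.53, -0.70 and -0.73 at day 10 of the diet. By day 30 the readings were 0.47, -1.19, -0.96, -0.54 and -1.43. The day 10 arrays lay closest together, and the ranges of the other groups covered them. Set against control, the differences were -0.17 (95% interval -1.22 to 0.88) at day 10 and -0.14 (95% interval -1.19 to 0.91) at day 30. Its pooled SD of 0.57 was lower than that of all but 10.6% of the tested genes. Mcl1, Bax, Pmaip1, Bcl2l11 and Bcl2 were also below the median gene in spread, at 0.80, 0.78, 0.86, 1.13 and 1.29. The other Bad probe passed the flag on 2 control, 0 day 10 and 2 day 30 arrays and was not tested. Its means were -3.53 ± 0.70 in control, -4.72 ± 0.47 at day 10 and -3.85 ± 0.96 at day 30 (SD, n = 5 each).

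Over all 15 arrays, the genes whose pattern around the group means was closest to that of Mcl1 among 11600 others well above background on every array were Gimap8, Tspyl1 and Ppp1cc, with Pearson correlations of 0.959, 0.959 and 0.951. For the brighter Bcl2l11 probe they were Arrdc1, Tgoln2 and Tmem141, at 0.863, 0.847 and 0.847. For Bcl2 the 3 closest, at 0.874, 0.841 and 0.840, were array entries without a gene symbol. By rank (Spearman) the correlations, in the same orders, were 0.879, 0.964 and 0.939 for Mcl1. They were 0.850, 0.704 and 0.725 for Bcl2l11 and 0.886, 0.554 and 0.671 for Bcl2. These describe arrays that share amplification, slide and detection share, and nothing was tested on them.

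The rest of the death pathway was no different in calls. Of 14 other family genes 8 were tested, and 0 passed the adjusted test in any comparison. At day 10 Bok, which encodes an effector-like protein, averaged -0.77 ± 1.20 against -3.04 ± 1.53 in control (SD, n = 5 each), a difference of 2.27 with a limma adjusted p of 0.9999. Bcl2l13 averaged -1.48 ± 1.06 at day 10 against 0.097 ± 1.09 in control, a difference of -1.58 with the same adjusted p. These were the 2 of 8 under an unadjusted 0.05 at day 10, where 2.61% of all genes were, and there were 0 at day 30, where 5.21% were. Of 15 genes of the apoptosome, caspases and their inhibitors 14 were tested and 0 passed the adjusted test in any comparison. At day 30 against control 3 of these 14 were under an unadjusted 0.05, as were 5.21% of all genes. Casp2, an initiator caspase, differed by 2.28, Htra2, a mitochondrial protease that counters caspase inhibitors, by -2.27, and Birc2, a ubiquitin ligase that restrains cell death at the TNF receptor, by 1.10, each with a limma adjusted p of 0.9227. The list's median difference was -0.74 at day 30 against control, with 10 of 14 lower, against -0.0053 for all genes. The 8 other family genes had medians of 0.67 and 0.32 against control at day 10 and day 30. Day 30 against day 10 gave a median of -0.74 for these 8, against 0.051 for all genes.

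**Figure D4:**
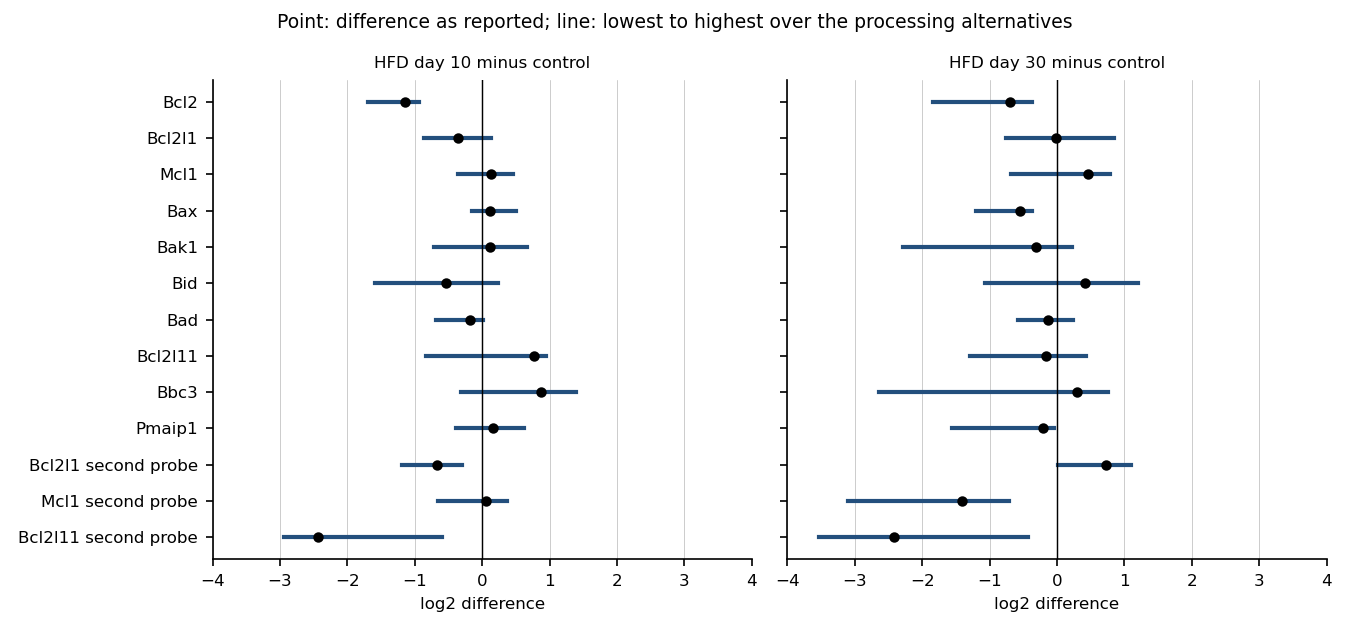
Log2 difference from control at HFD day 10 and at HFD day 30 for the 10 genes and the 3 second probes tested (points), with the lowest and highest value over all processing alternatives and arrays left out (lines). The lines stay on 1 side of 0 in both panels for Bcl2, for the second Bcl2l11 probe and for the second Bcl2l1 probe. For the latter they lie below 0 at day 10 and above 0 at day 30. The second Bcl2l11 probe entered the fits through 4 control arrays and 1 day 10 array, where it read high, so its lines are no support for a difference.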

How the data were processed

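Per the file headers, the scanner files hold intensity values from Agilent's Feature Extraction software, version 10.7.3.1, on a design annotated with build mm9. The authors' processed intensity is background subtracted and detrended within an array and is not scaled between arrays, and the mean and background intensity of each spot are also deposited. The authors also deposited a table of log2 values with 1 distribution in all arrays, with its steps not given in the sources used here. It served as an alternative.

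Levels are log2 of the processed intensity less the 75th percentile of non-control probes on that array. Outlier spots (46 missing probe values) and 1 damaged line were left out, and repeat spots were averaged. The brightest probe on average stood for a gene, which was tested if the flag for a signal well above background was set for it on 5 or more of 15 arrays, leaving out 8819 genes. Group means over all 15 arrays were fitted with limma 3.58.1 in R 4.3.3 (lmFit, eBayes with an intensity trend, two-sided), with Benjamini-Hochberg adjustment over 25997 genes and a threshold of 0.05. Second probes came from the same fit over 38437 probes. Probe gaps were compared with exact permutation tests. Closest genes were ranked by Pearson correlation after subtracting group means, and pathway genes named are some of the 3 of smallest p per list and comparison, picked among these after their values were seen. Probe names follow the array and RefSeq symbols. The labels do not say that replicate numbers pair the arrays, so the main fit had no such block. Alternatives covered normalization, background, dim probes, probe choice, slide, detection share, the fit and arrays left out. The members and the gene lists were chosen with earlier results of these data known.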

Additional observations from a re-analysis of the deposited data

Results flagged for a closer look

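Among 42 sets of 5 arrays (14 probes in 3 groups), 2 held an array far from the other 4, and chance alone gives about 1 in 20. Bcl2 on HFD day 10 replicate 4 was 2.77, while the other 4 day 10 arrays lay between -0.17 and 0.28. The gap to its nearest neighbour took 84.6% of the group's range. Pmaip1 on control replicate 1 was -0.13, while the other 4 controls lay between 1.67 and 2.03, and the gap took 83.4% of the range. Control replicate 1 was also the array with the highest share of spots well above background, 82.0%. What sets these 2 values apart was not tested.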

How the results depend on the processing

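The count of members called was 0 in every comparison under every alternative, adjusted for all genes. Of 1133 differences recomputed, 109 had the opposite sign, 49 of them with 1 array left out and 60 under other alternatives, and none of the 1133 was called. Of the 39 differences 15 kept their sign throughout. Over all genes the count called was 0 except for 1 with slide as a block (day 30 against control), 1 with every probe tested on its own (day 30 against day 10), and with 1 array left out 0 to 1 (day 10 against control, 1 without day 30 replicate 4) and 0 to 2 (day 30 against control and against day 10, 2 without day 10 replicate 4). Genes under an unadjusted p of 0.05 numbered 678, 1355 and 1070 of 25997 for day 10 against control, day 30 against control and day 30 against day 10. Over the alternatives the counts ranged from 223 to 1137, 717 to 2258 and 375 to 1651. They were lowest where only the 11601 genes well above background on all 15 arrays were tested, so fewer could be counted. The 1651 are probes, of 38437 with every probe tested on its own. The ends of these ranges are thus not shares of 1 total. The 75th percentile over detected probes moved the median of all genes to -0.38 at day 30 against control and to -0.24 at day 30 against day 10, and the deposited table to -0.24 and -0.14, so the family's signs there are read against these shifts. With that percentile, the genes under 0.05 at day 30 against control split into 247 higher and 1234 lower, against 649 and 706 as reported, and in the deposited table into 326 and 1658. With the 75th percentile over detected probes, the sign turned for day 10 against control Mcl1 second probe -0.023, for day 30 against day 10 Bad -0.25 and Bcl2l11 second probe -0.28, for day 30 against control Bbc3 -0.072. In the authors' deposited log2 table, the sign turned for day 10 against control Mcl1 -0.074, Bax -0.019, Bid 0.22, Pmaip1 -0.027 and Mcl1 second probe -0.087, for day 30 against day 10 Bcl2 -0.0034, Bcl2l1 -0.093, Mcl1 -0.17 and Bad -0.098, for day 30 against control Mcl1 -0.25 and Bbc3 -0.13. With the detection share as a covariate, the sign turned for day 10 against control Mcl1 -0.36, Bax -0.012, Bak1 -0.72, Pmaip1 -0.13 and Mcl1 second probe -0.66, for day 30 against day 10 Bcl2l1 -0.074, Mcl1 -0.33 and Bcl2l11 second probe -0.62, for day 30 against control Mcl1 -0.68, Bid -0.092, Bad 0.24 and Bcl2l11 0.016. With the mean of all probes of a gene, the sign turned for day 10 against control Bcl2l11 -0.83, for day 30 against day 10 Mcl1 -0.57, for day 30 against control Bcl2l1 0.35 and Mcl1 -0.47. With slide as a block, the sign turned for day 10 against control Bax -0.15, Bak1 -0.29, Bbc3 -0.31 and Pmaip1 -0.39, for day 30 against day 10 Bcl2 -0.24, Bad -0.020 and Bcl2l11 second probe -0.31, for day 30 against control Bcl2l1 0.83, Bid -1.07 and Bbc3 -2.64. Within 1 slide, chosen after seeing the data, the sign turned for day 10 against control Bax -0.15, Bak1 -0.29, Bbc3 -0.31 and Pmaip1 -0.39, for day 30 against day 10 Bcl2 -0.24, Bad -0.020 and Bcl2l11 second probe -0.31. Without control replicate 1 and day 30 replicate 3 together, chosen after seeing the data, the sign turned for day 10 against control Mcl1 -0.30, Bax -0.088, Bak1 -0.68, Bad 0.011, Pmaip1 -0.23 and Mcl1 second probe -0.34, for day 30 against day 10 Bid -0.51 and Bcl2l11 second probe -0.057, for day 30 against control Bcl2l1 0.15, Mcl1 -0.12, Bid -0.94 and Bad 0.10. Where leaving out 1 array turned a sign, the values ranged for day 10 against control Bcl2l1 -0.87 to 0.14, Mcl1 -0.30 to 0.46, Bax -0.15 to 0.50, Bak1 -0.68 to 0.66, Bid -1.59 to 0.23, Bad -0.40 to 0.011, Pmaip1 -0.23 to 0.62 and Mcl1 second probe -0.34 to 0.37, for day 30 against day 10 Bcl2 -0.24 to 0.99, Bcl2l1 -0.15 to 1.21, Bak1 -1.20 to 0.041, Bid -0.51 to 2.01, Bad -0.26 to 0.21 and Bcl2l11 second probe -0.38 to 0.44, for day 30 against control Bcl2l1 -0.51 to 0.84, Bak1 -1.12 to 0.22, Bid -1.05 to 1.20, Bad -0.44 to 0.047, Bcl2l11 -0.58 to 0.43 and Bbc3 -0.087 to 0.75. The cause was not tested.

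With the replicate number as a replicate block, members called stayed at 0 and genes under an unadjusted 0.05 numbered 714, 1393 and 1116. The labels do not say what a replicate number stands for. Correlations of the deviations of arrays sharing a number ran from -0.13 to 0.15 over 15 pairs, 1 of them over 0.1. Such correlations cannot tell whether these arrays were paired. Signal over background limits Bid and the second probes of Bcl2l11 and Bad: by the less strict detection flag they were detected on 8, 9 and 13 of 15 arrays, against 7, 5 and 4.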

Other observations

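Genes of the death receptor pathway and of the family's regulators gave no call either. Of 10 death receptor genes 8 were tested, and 0 passed the adjusted test or an unadjusted 0.05 in any of the 3 comparisons. Ripk1, the kinase that links TNF receptors to survival or death, averaged 2.01 ± 0.76 at HFD day 30 against 0.60 ± 0.98 in control (SD, n = 5 each), a difference of 1.41 (95% interval -0.096 to 2.92) with a limma adjusted p of 0.9227. Tnfrsf1a, a TNF receptor, averaged 1.49 ± 1.25 at day 30 against 0.0034 ± 2.03 in control, a difference of 1.49 (95% interval -0.30 to 3.28) with the same adjusted p. Fasl, the ligand that T cells use to kill through Fas, averaged 2.48 ± 0.67 at day 30 against 1.98 ± 0.38 at day 10, a difference of 0.50 with a limma adjusted p of 0.9995.

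All 18 regulators of the family were tested and 0 passed, adjusted or at an unadjusted 0.05. At day 30 against control 13 were higher and 5 lower, with a median difference of 0.46, against -0.0053 for all genes. For the genes well above background on all 15 arrays that median was 0.20, so brighter genes leaned higher there too. Stat5b, which carries interleukin-2 and interleukin-7 signals to survival genes, averaged 3.87 ± 0.97 at day 30 against 2.67 ± 1.43 in control (SD, n = 5 each), a difference of 1.20 (95% interval -0.097 to 2.50) with a limma adjusted p of 0.9227. Pim1, a survival kinase, averaged 5.00 ± 0.50 at day 30 against 4.23 ± 1.36 in control, with an adjusted p of 0.935 in limma. Usp9x, which encodes a deubiquitinase that stabilises MCL1, averaged -3.18 ± 3.44 at day 10 against -0.014 ± 2.14 in control, with a limma adjusted p of 0.9999, with the flag for a signal above background set on 2 day 10 and 5 control arrays.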
